A study of Mus musculus with 12 samples.

Results

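The comparison described here is that of embryoid bodies lacking Notch1 with wild-type (WT) embryoid bodies on day 6 of differentiation. It takes all 3 libraries labelled Notch1-/- at day 6 and all 3 labelled WT at day 6, that is 6 of the 12 libraries of the series, chosen by their labels and not by any measured value. Both groups came from mouse embryonic stem cells of strain C57BL/6J, grown either on a feeder layer of mouse embryonic fibroblasts or on gelatin, with the cytokine LIF at 1000 U/ml. Drops of 1000 cells were then hung to aggregate into embryoid bodies under a protocol for cardiac differentiation, and poly(A) RNA was read as pairs of 100 bases. The labels do not say which libraries were grown on feeders, which part of Notch1 was deleted, or whether each genotype is 1 clonal line. The design speaks of 3 biological replicates per condition but names no separate cultures or clones. Each p-value therefore covers the spread among libraries alone, and that spread may be technical. In the main fit it was estimated per locus from all 12 libraries of both days.

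Notch receptors are cut after they bind a ligand on a neighbouring cell, and the freed intracellular part enters the nucleus, where it joins the DNA-binding protein RBPJ and Mastermind proteins to switch on target genes, among them members of the Hes and Hey families. The pathway is known for its roles in choosing between cell fates, in the formation of arteries and the heart, and in the segmentation of the somites. Embryoid bodies pass through stages that resemble the epiblast and the primitive streak before mesoderm, endoderm and ectoderm derivatives form, so that markers of these stages can be read side by side in 1 bulk sample. In such bulk RNA, fewer cells of a type and less RNA per cell cannot be told apart.

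Levels are given as CPM, that is counts scaled to a common library size after TMM normalization, for libraries 1, 2 and 3 of a group, and differences as log2 values, Notch1-/- minus WT, with their standard errors (SE). CPM values of different genes are not compared, since they depend on gene length. A locus is called when edgeR's quasi-likelihood test gave a Benjamini-Hochberg adjusted p under 0.05 over the 23991 loci tested of 40039. Gene symbols were inferred from transcript structure. Day 6 libraries held 113229847 to 134662426 counts. The 3 Notch1-/- libraries differed more among themselves (Pearson r of log2 CPM across loci 0.9825 to 0.9911) than the WT libraries did (0.9932 to 0.9967). Library 3 of the Notch1-/- group was often at 1 end of its group's range: of the 11 primitive streak genes called higher it was the lowest of the 3 for 9, and of the 13 genes of BMP signalling called lower it was the lowest for 10. The 11 widely expressed reference genes tested gave 0 calls by edgeR and 0 by DESeq2 (2 at an unadjusted p under 0.05 in edgeR), with a median of 0.16. However, 5 of them lay higher in every Notch1-/- than in every WT library and 1 lower, their summed level was 3590 to 3940 CPM in Notch1-/- and 2680 to 2880 CPM in WT libraries, and 5 were called higher when the day 6 libraries were fitted alone and 2 by limma on FPKM.

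Of the loci tested, 6741 were called (28.1%), 3283 higher (13.7%) and 3458 lower (14.4%) in Notch1-/- embryoid bodies. Among these, 257 higher (1.07%) and 465 lower loci (1.94%) changed at least 16-fold. Groups did not overlap for many more loci, with all Notch1-/- libraries above all WT libraries at 29.8% and below them at 29.4%. Of the 13807 tested loci linked to a single gene, 2142 were higher (15.5%) and as many were lower (15.5%), and the median difference over all of them was 0.025. These shares are the background against which every gene list below is set. The count of calls was 4285 without WT library 1 and 4435 without WT library 2. The broad pattern was that genes of the epiblast and of the early primitive streak were higher, while genes of extraembryonic and posterior mesoderm, endothelium, blood, visceral endoderm, mesenchyme and neural crest were lower. For the lists below with none called in 1 direction, edgeR at an unadjusted p under 0.05 found 0 in that direction for endothelium, cardiac factors, mesenchyme, allantois and primed epiblast, and 1 each for collagens and naive pluripotency. DESeq2 also called 0 in those directions. Among all alternative settings, up to 2 collagens were called higher and up to 1 naive pluripotency gene lower, and 0 in those directions for the other lists named.

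Notch1 itself is locus XLOC_020472 (mm9 chromosome 2, 26301026 to 26363148, minus strand). Its level was 38, 30.9 and 31.1 CPM in WT libraries and 6.8, 4.9 and 4.95 CPM in Notch1-/- libraries. All 3 Notch1-/- libraries lay below all 3 WT libraries, a difference of -2.58 (SE 0.30, adjusted p = 6.79e-05). The deposited FPKM, which are scaled by transcript length, were 4.51, 3.66 and 3.86 in WT and 0.431, 0.276 and 0.223 in Notch1-/- libraries. The residual counts at the locus were not assigned to exons, and 1 of the 3 receptors tested was called. Notch2 had 181, 180.1 and 162 CPM in WT against 161, 163 and 142 CPM in Notch1-/- libraries, and the groups overlapped. Notch3, which marks mural cells of vessels, had 389.5, 379 and 322 against 264, 244 and 183 CPM: the groups were apart, but the difference of -0.66 (SE 0.29) was not called (adjusted p = 0.114). Notch4 has no locus of its own. The locus that merges it with Ager, Pbx2 and Gpsm3, with 84.22% of its exons shared with other loci, was called lower (-1.76, SE 0.545).

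Among the ligands, 2 of 7 were higher and 2 lower. Dll1, the Delta ligand of the streak and presomitic mesoderm, rose from 3.16, 2.45 and 3.33 CPM in WT to 28.7, 21.2 and 20.2 CPM in Notch1-/- libraries (2.97 ± 0.60 SE, adjusted p = 0.00292). Jag2 rose from 29.1, 21.2 and 27.3 to 58.7, 56.3 and 50.5 CPM (1.09 ± 0.28 SE, adjusted p = 0.0119), a call lost without WT library 2. Dll4, the Delta ligand of arterial endothelium, fell from 1.24, 1.49 and 0.983 to 0.279, 0.242 and 0.141 CPM (-2.49 ± 0.61 SE). Dlk1, an imprinted Delta-like protein without the usual receptor-activating domain, fell from 305, 316 and 295 to 9.88, 7.16 and 4.39 CPM (-5.42 ± 0.61 SE, adjusted p = 6.3e-05). For each of these 4 genes the Notch1-/- libraries lay wholly on 1 side of the WT libraries. Jag1 (0.32), Dlk2 (-0.34) and Dner (0.16) were not called. Dll3 has no locus of its own and is not among the 7. The locus that merges it with Selenov, with 61.14% of its exons shared with other loci, was called higher (3.55 ± 0.36 SE). Its level was 3.1, 2.78 and 4.21 CPM in WT and 53.8, 37.8 and 26.3 CPM in Notch1-/- libraries.

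Of 13 genes that process or modify Notch, Lfng, the Fringe enzyme that adds sugars to the receptor and cycles in the presomitic mesoderm, was higher (3.3, 3.76 and 3.12 CPM in WT, 10.8, 7.62 and 9.49 CPM in Notch1-/-; 1.45 ± 0.30 SE). In contrast, 3 with small differences were lower: Adam10, the protease of the first cut (-0.71), Pofut1, which adds fucose to the receptor (-0.63), and Numb, an inhibitor of the pathway (-0.89). Not called were, of the gamma-secretase complex, Psen2 (0.31), Ncstn (-0.23) and Psenen (-0.03), and, of the other modifiers, Adam17 (-0.26), Mfng (1.08), Mib1 (0.10), Neurl1a (-0.78), Numbl (-0.34) and Itch (-0.14). Among the alternative settings, up to 7 of these processing genes and modifiers were called lower and up to 3 higher. No nuclear partner of 5 was called in the main edgeR fit (2 at an unadjusted p under 0.05) or by DESeq2. Other settings, however, called up to 3 of the partners lower and up to 1 higher. Rbpj had 27.9, 28.8 and 31 CPM in WT and 28, 34.2 and 32.3 CPM in Notch1-/- libraries, and Maml2 (-0.57), Maml3 (-1.01), Spen (1.04) and Kdm5a (-0.35) lay on both sides of 0.

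The targets of the pathway did not move together: of 13 tested, 4 were lower and 1 was higher, against 31.0% called among all linked genes. Hey2, a repressor that acts in artery and heart development, fell from 49.1, 53.9 and 32.9 CPM in WT to 3.57, 2.25 and 2.09 CPM in Notch1-/- libraries (-4.10 ± 0.40 SE, adjusted p = 1.95e-05). Heyl fell from 0.795, 1.14 and 0.667 to 0.189, 0.218 and 0.0968 CPM (-2.37 ± 0.38 SE), and Sox9, a factor of neural crest and cartilage, fell from 21.5, 23.3 and 31.1 to 4.4, 5.18 and 2.88 CPM (-2.61 ± 0.47 SE). Gata3 fell from 40, 33.8 and 32.9 to 7.98, 19.7 and 1.64 CPM (-1.87 ± 0.64 SE, adjusted p = 0.0458), a call lost without any 1 of 5 of the 6 day 6 libraries. Hes5 was called higher, but at levels near the limit of counting, 0.0497, 0.0169 and 0.0684 CPM in WT and 0.18, 0.078 and 0.424 CPM in Notch1-/- libraries, and the call was lost without WT library 1, WT library 2 or Notch1-/- library 3. Hey1 had 27.9, 25.7 and 18 against 24.3, 23.2 and 11.7 CPM and was not called. The counts of Hes1 are unreliable because its exons lie wholly within another locus; its FPKM were 50, 46.1 and 43.9 in WT and 44.5, 45.9 and 31.4 in Notch1-/- libraries and overlapped. Snai1 (0.55), Myc (-0.54), Efnb2 (0.12), Ephb4 (-0.62), Hes6 (0.62), Dtx1 (0.92) and Dtx4 (0.60) were not called either.

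**Figure D1:**
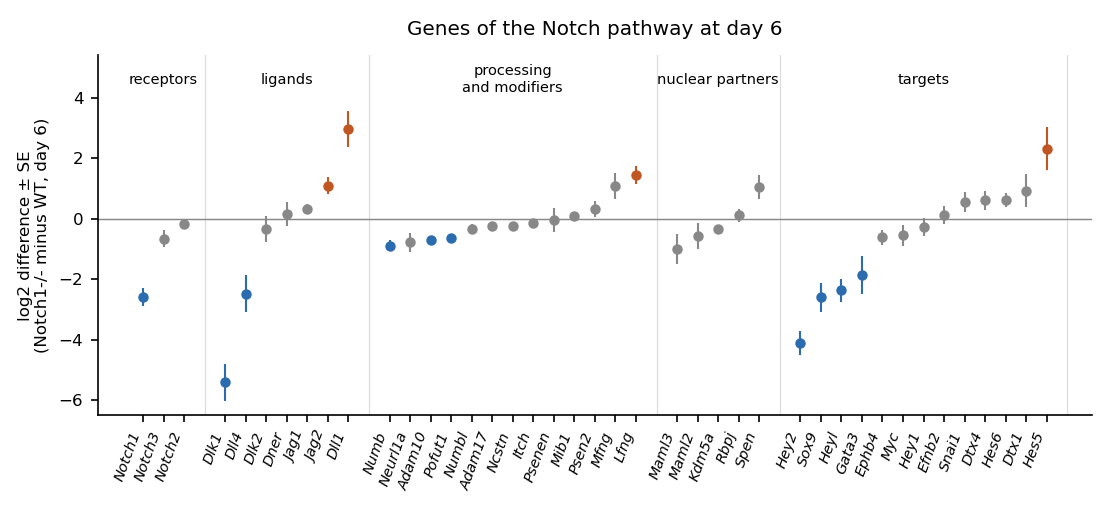
Each point is the log2 difference (Notch1-/- minus WT, day 6) of 1 tested gene of the Notch pathway with its standard error, grouped by role; blue points were called lower, orange points higher and grey points not called. Dlk1 (-5.42) and Hey2 (-4.10) lie lowest, with Notch1 at -2.58, Dll1 (2.97) and Hes5 (2.32) highest. No nuclear partner was called in this main fit.

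Promoter sequences were available for Hey2, Hes5 and Lfng, 1 target that fell, 1 that rose at a low level and 1 modifier that rose. They are shown because all 3 hold the core of the RBPJ binding motif, GTGGGAA, on 1 strand or the other (TTCCCAC). The sequences are from RefSeq (GRCm38.p6), run 5′ to 3′ along the gene's strand over the 250 bases before the transcription start, and capitals mark the matches. For Hey2 the run goes on to the end of its second match, which spans the start.
Hey2, chr10:30842781-30843033, minus strand: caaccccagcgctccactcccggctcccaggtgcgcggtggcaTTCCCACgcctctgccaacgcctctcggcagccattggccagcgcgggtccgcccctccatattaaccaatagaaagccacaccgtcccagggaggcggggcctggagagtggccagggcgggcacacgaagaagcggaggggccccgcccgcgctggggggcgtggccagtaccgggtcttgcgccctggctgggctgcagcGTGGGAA
Hes5, chr4:154960673-154960922, plus strand: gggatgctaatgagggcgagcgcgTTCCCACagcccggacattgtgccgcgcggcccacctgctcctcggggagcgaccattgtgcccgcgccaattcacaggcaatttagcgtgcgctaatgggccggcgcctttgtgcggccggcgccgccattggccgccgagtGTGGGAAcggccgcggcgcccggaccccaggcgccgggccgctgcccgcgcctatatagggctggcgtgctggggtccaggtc
Lfng, chr5:140607091-140607340, plus strand: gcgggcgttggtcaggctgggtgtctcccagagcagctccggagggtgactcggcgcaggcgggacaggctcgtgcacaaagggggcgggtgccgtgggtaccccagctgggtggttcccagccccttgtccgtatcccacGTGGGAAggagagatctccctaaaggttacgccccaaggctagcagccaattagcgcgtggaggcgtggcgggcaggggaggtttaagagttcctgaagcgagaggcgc
Of 32851 promoter windows of 300 bases in the same table, 6.38% held at least 1 match on either strand and 0.256% held at least 2, as those of Hey2 and Hes5 do. Of the 11 listed Notch targets with an entry, 3 held a match in any promoter, Hes5, Hes7 and Hey2, against 7.25% of the 27025 genes of the table. Hey2 and Hes5, each with 2 matches, differed in opposite directions. The table held 75.4% of the tested genes, so a comparison of the share over called genes was not made. A match is a description of the letters and not evidence of binding.

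The genes with the greatest increases formed no single family. Wnt8a, a ligand of the primitive streak, rose from 2.66, 3.87 and 7.13 CPM in WT to 92, 85.1 and 87.5 CPM in Notch1-/- libraries (4.28 ± 0.41 SE, adjusted p = 1.83e-05). Fgf5, the classic marker of the primed epiblast, rose from 4.85, 8.24 and 15.7 to 160.2, 113 and 158 CPM (3.90 ± 0.54 SE). Fst, which encodes the activin-binding protein follistatin, rose from 12.5, 15.3 and 36.6 to 303, 378 and 234 CPM (3.83 ± 0.66 SE). Apln, the ligand of the apelin receptor, rose from 2.99, 3.32 and 7.2 to 61.9, 63 and 62.6 CPM (3.80 ± 0.33 SE). Pcdh8, a protocadherin of paraxial mesoderm, rose from 0.654, 0.728 and 1.66 to 17.9, 21.5 and 14.5 CPM (4.15 ± 0.44 SE). Slc27a2, a fatty acid transporter (4.92 ± 0.58 SE), Pianp (4.76 ± 0.37 SE), Fam25c (4.29 ± 0.38 SE) and Map7d2, which binds microtubules (4.19 ± 0.56 SE), completed the coding genes of this group beside 4 that are taken up with day 0 below. WT library 3 was the highest of the WT libraries for Wnt8a, Fgf5, Fst and Apln. It lay below every Notch1-/- library, but groups that do not overlap were a condition for naming these genes.

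The 15 genes named for the greatest decreases included several of growth factors, muscle and matrix. Igf2, an imprinted growth factor (chromosome 7, 149836673 to 149846940, minus strand), fell from 11340.0, 11810.0 and 10460.0 CPM to 374, 158 and 111 CPM (-5.71 ± 0.46 SE, adjusted p = 5.31e-06). For Igf2 the FPKM table goes the other way, with WT libraries listed at 0 and Notch1-/- libraries at 58.2, 24.2 and 17.7. Given the WT counts, this FPKM of 0 does not mean that reads were absent, and its cause was not tested. Igfbp5, which binds IGFs, fell from 475, 525 and 387 to 4.43, 3.17 and 17.7 CPM (-5.77 ± 0.61 SE). Acta2, smooth muscle actin, fell from 375, 458 and 319 to 3.35, 3.75 and 6.13 CPM (-6.44 ± 0.55 SE), and Postn, a matrix protein of connective tissue, from 110.5, 137 and 163 to 0.765, 0.515 and 1.59 CPM (-7.15 ± 0.67 SE). Hapln1, which ties hyaluronan to proteoglycans (-6.53 ± 0.68 SE), and Adamts2, which trims procollagen (-5.50 ± 0.53 SE), fell as well. Groups that do not overlap were a condition for naming these genes, so their separation is not a further result.

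**Figure D2:**
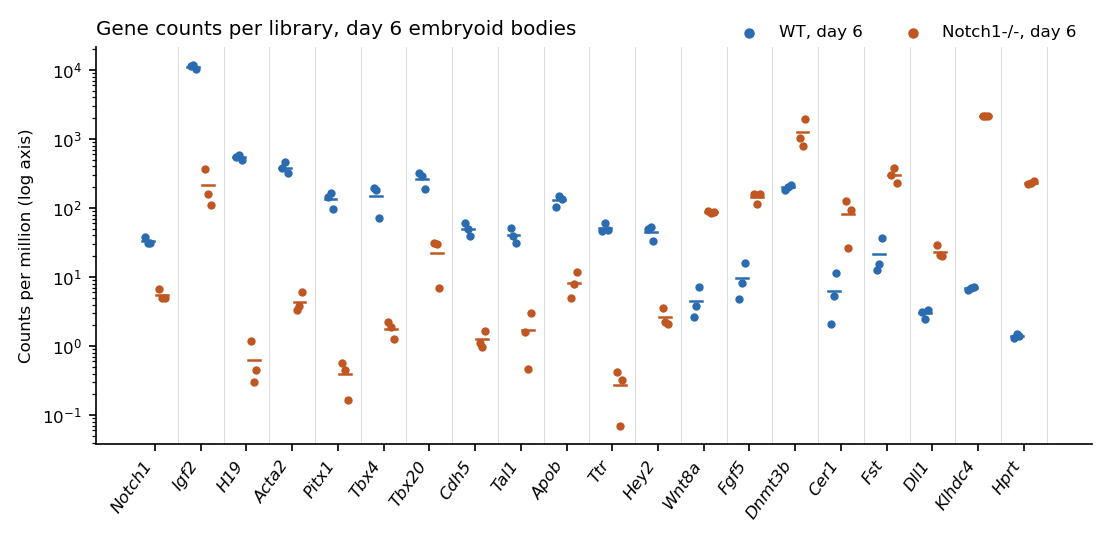
CPM on a log axis for 20 genes in each day 6 library (points) with the group mean (short line), WT in blue and Notch1-/- in orange. For all 20 genes the 2 groups do not overlap, which was a condition for naming those with the greatest changes. H19, Pitx1 and Ttr are among those near or below 1 CPM in the Notch1-/- libraries.

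Genes of the primitive streak and nascent mesoderm were mostly higher: 11 of 17 tested were called higher and 2 lower, with a median of 1.66. Several of them share exons with other loci, where counts are lost, and for these the length-scaled FPKM were tested with limma on log2(FPKM + 1) over 12559 loci, of which 31.4% were called (15.7% in each direction); a difference on that scale understates the change of low genes. T, the brachyury factor that defines the streak, had 11.7, 11.4 and 28 FPKM in WT and 141, 178 and 58.5 FPKM in Notch1-/- libraries (2.79 ± 0.45 SE, adjusted p = 0.00131). Eomes, a T-box factor of the streak and definitive endoderm, had 12.6, 12.5 and 15.1 against 104, 106 and 62.5 FPKM (2.64 ± 0.41 SE). Mixl1, a homeobox factor of mesendoderm, had 7.7, 8.16 and 9.89 against 87.8, 136 and 38.5 FPKM (3.04 ± 0.37 SE), although its sparse counts were not called. Every Notch1-/- library was above every WT library for these 3 genes, with Notch1-/- library 3 the lowest of its group.

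Mesp1, the earliest marker of cardiac mesoderm, rose from 0.916, 0.751 and 1.35 to 40.5, 35.7 and 19.1 FPKM (3.97 ± 0.23 SE, adjusted p = 1.32e-06). Lhx1, a factor of the anterior streak, rose from 3.22, 2.81 and 4.73 to 110.0, 69.7 and 44.7 FPKM (3.98 ± 0.38 SE), and Gsc, goosecoid of the organizer, from 1.15, 1.73 and 1.77 to 19.7, 16.3 and 8.99 FPKM (2.60 ± 0.26 SE). By counts, Wnt3a rose from 0.182, 0.118 and 0.265 to 3.32, 3.83 and 2.33 CPM (4.06 ± 0.51 SE). Cer1, an antagonist of Nodal, rose from 2.1, 5.3 and 11.6 to 127, 26.6 and 93.4 CPM (3.70 ± 1.30 SE, adjusted p = 0.0491), with a wide spread in both groups, and the call was lost without any 1 of the 6 day 6 libraries, in DESeq2 and with the replicate block. The 2 genes called lower were Cdx2, a caudal factor of posterior mesoderm and trophectoderm (90.7, 102 and 65.6 CPM in WT, 9.08, 17.8 and 2.75 CPM in Notch1-/-), and the Wnt amplifier Rspo3 (-1.28 ± 0.42 SE). Cdx1 (2.72 ± 0.74 SE) and Cdx4 (1.66 ± 0.45 SE) were higher. The calls of Rspo3, Cdx1 and Cdx4 were each lost in at least 3 of the 6 fits that left out 1 day 6 library, among them the fit without WT library 3. Without Notch1-/- library 3 the list had 10 genes called higher, and 8 without Notch1-/- library 2, WT library 2 or WT library 3.

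Markers of the primed epiblast went the same way, with 6 of 9 higher, none lower and a median of 1.43. Dnmt3b, the de novo DNA methyltransferase of the epiblast, rose from 181, 203 and 218 CPM to 1043, 794 and 1927 CPM (2.64 ± 0.39 SE, adjusted p = 0.000405), and Otx2 from 19.8, 15.9 and 25.1 to 108, 70.4 and 137 CPM (2.37 ± 0.48 SE). Here Notch1-/- library 3 was the highest. Of 21 tested genes of naive pluripotency, 9 were higher and none lower (median 0.73), among them Sall4 (264, 256 and 228 against 549, 534 and 485 CPM; 1.07 ± 0.19 SE), Fgf4 (1.5 ± 0.23 SE), Dppa4 (1.19 ± 0.24 SE), Nr0b1 (1.97 ± 0.36 SE) and Esrrb (0.99 ± 0.24 SE), the last lost without Notch1-/- library 2. Nanog had 47.4, 53.2 and 58.3 FPKM in WT and 126, 142 and 119 FPKM in Notch1-/- libraries (1.27 ± 0.25 SE), while its counts, which overlap another locus, were not called. Zfp42 (0.24 ± 0.22 SE) and Klf4 (0.73 ± 0.33 SE), 2 markers of the ground state, were not called. Without Notch1-/- library 2, 6 naive genes were called higher.

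**Figure D3:**
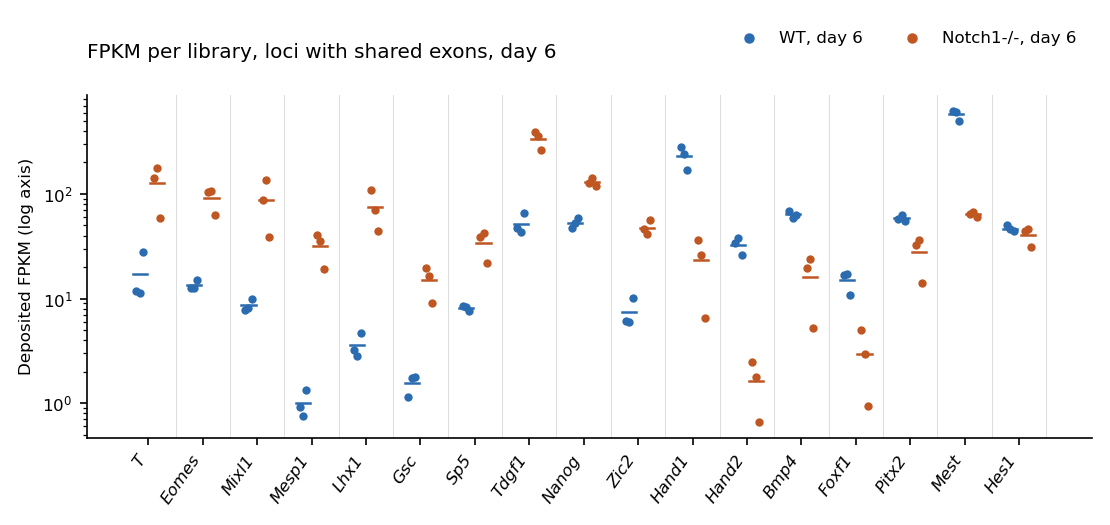
Deposited FPKM on a log axis for 17 genes whose exons another locus shares, in each day 6 library (points) with the group mean (line), WT in blue and Notch1-/- in orange. T, Eomes, Mixl1, Mesp1, Lhx1, Gsc, Sp5, Tdgf1, Nanog and Zic2 are higher in all 3 Notch1-/- libraries, Hand1 to Mest are lower in all 3, and the groups overlap for Hes1.

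Genes of the Nodal pathway, which induces the streak, were higher in 7 of 15 cases and lower in 2 (median 0.84). Nodal itself rose from 45.1, 47.8 and 61.2 CPM to 137, 180.4 and 92.6 CPM (1.41 ± 0.22 SE, adjusted p = 0.000563), and its feedback inhibitor Lefty2 from 58.1, 64.9 and 98 to 227, 197 and 146 CPM (1.37 ± 0.31 SE). The co-receptor Tdgf1 (Cripto) had 46.9, 43.4 and 65.4 FPKM in WT and 387, 359 and 265 FPKM in Notch1-/- libraries (2.68 ± 0.19 SE). The 2 members called lower were the signal transducers Smad3 (129, 132 and 115 against 55.8, 40.3 and 51.2 CPM; -1.35 ± 0.20 SE) and Smad2 (-0.51 ± 0.12 SE). Without WT library 2, 4 genes of this list were called higher.

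BMP signalling, which patterns posterior and extraembryonic mesoderm, showed the opposite balance: 13 of 25 genes were lower and 2 higher, with a median of -0.89. Of the ligands, Bmp4 had 69.1, 59.3 and 63.2 FPKM in WT and 19.5, 23.8 and 5.21 FPKM in Notch1-/- libraries (-2.14 ± 0.53 SE, adjusted p = 0.0121). Bmp2 fell from 87.4, 104 and 91.1 to 24.8, 19.1 and 8.93 CPM (-2.42 ± 0.33 SE), and Bmp5 fell by more on the log2 scale (-2.74 ± 0.52 SE). Of the genes that respond to BMP, Id2 fell from 129.9, 142 and 139.7 to 12.1, 13.1 and 14.9 CPM (-3.36 ± 0.37 SE, adjusted p = 4.82e-05), the inhibitory Smad6 from 148, 143 and 111 to 23.5, 19.7 and 8.7 CPM (-2.95 ± 0.36 SE) and the decoy receptor Bambi from 212, 240.0 and 175 to 49.5, 56.8 and 20.8 CPM (-2.30 ± 0.29 SE). Each of these 6 genes was lower in all 3 Notch1-/- libraries, and Notch1-/- library 3 was the lowest for Bmp4, Bmp2, Smad6 and Bambi. The receptor Bmpr1b (1.91 ± 0.56 SE) and the BMP antagonist Chrd (1.23 ± 0.31 SE) were higher, calls lost without Notch1-/- library 3 and, for Bmpr1b, without any 1 WT library and, for Chrd, without Notch1-/- library 1.

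The list with the lowest median of those with at least 10 tested genes was that of allantois and hindlimb mesoderm, the posterior and extraembryonic mesoderm, where 11 of 14 genes were lower and none higher (median -3.04). Pitx1, a homeobox factor of the hindlimb field (chromosome 13, 55926415 to 55932970, minus strand), fell from 145, 168 and 96.5 CPM to 0.576, 0.445 and 0.164 CPM (-8.44 ± 0.45 SE, adjusted p = 2.73e-07). Tbx4, a T-box factor of allantois and hindlimb, fell from 193, 181 and 72.5 to 2.21, 1.89 and 1.27 CPM (-6.38 ± 0.49 SE). Hoxd13, the most posterior Hox gene of its cluster, fell from 31.3, 34.1 and 28.7 to 0.846, 1.67 and 0.953 CPM (-4.76 ± 0.52 SE), and the mesenchymal homeobox gene Prrx1 from 56.1, 58.2 and 42.5 to 2.32, 1.7 and 1.96 CPM (-4.71 ± 0.57 SE). Vcam1, the adhesion molecule of the allantois (-3.41 ± 0.62 SE), and its partner Itga4 (-4.37 ± 0.50 SE) both fell, although on log2(FPKM + 1) Vcam1 was not called. Foxf1, a forkhead factor of extraembryonic and lateral mesoderm, had 16.8, 17.3 and 10.7 FPKM in WT and 5.01, 2.96 and 0.944 FPKM in Notch1-/- libraries (-2.13 ± 0.34 SE). Of 12 trophoblast genes tested, 4 were lower, Cdx2, Gata3, Plac1 (-5.30 ± 0.65 SE) and Esx1 (-2.46 ± 0.31 SE), and Eomes was higher by counts, a call lost without WT library 2.

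Cardiac progenitor factors were lower in 8 of 15 cases, with none higher (median -2.06), and the count was 8 without any 1 library. The T-box gene Tbx20, which acts in the forming heart, fell from 322, 287 and 187 CPM to 31, 29.6 and 6.98 CPM (-3.56 ± 0.49 SE, adjusted p = 0.000228). Isl1, of the second heart field and posterior mesoderm, fell from 57.7, 59.7 and 43.4 to 6.43, 7.76 and 1.74 CPM (-3.34 ± 0.43 SE), Mef2c from 11.5, 10.4 and 9.85 to 0.963, 1.41 and 1.57 CPM (-3.01 ± 0.29 SE) and Gata5 from 21.6, 20.4 and 7.71 to 0.09, 0.0156 and 0.067 CPM (-8.16 ± 0.91 SE). Hand1 had 284, 239 and 171 FPKM in WT and 36.6, 26.3 and 6.55 FPKM in Notch1-/- libraries (-3.52 ± 0.57 SE), and Hand2 34.2, 37.8 and 26.3 against 2.45, 1.78 and 0.654 FPKM (-3.73 ± 0.24 SE). Mesp1, described above, was higher, unlike these factors.

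The labels describe a cardiac differentiation, and the heart muscle genes Nkx2-5 and Tnnt2 were low in both groups. Nkx2-5, the cardiac homeobox factor, had 1, 0.804 and 0.658 CPM in WT and 0.198, 0.211 and 0.112 CPM in Notch1-/- libraries (-2.24 ± 0.50 SE), and Tnnt2, cardiac troponin T, 3.34, 2.94 and 2.62 against 2.57, 2.49 and 0.521 CPM. Of 19 tested genes of the sarcomere, 4 were higher and 6 lower (median -0.45). Those called higher included Myl7, the atrial light chain (1.23, 1.11 and 1.18 against 18.8, 5.55 and 7.63 CPM; 3.18 ± 0.43 SE), and Actn2 (1.46 ± 0.26 SE). Those called lower included Tnni1 (-3.12 ± 0.46 SE), Smyd1 (-2.29 ± 0.29 SE) and Tpm1, which is expressed in many cells (1159, 1147 and 1011 against 563, 618 and 533 CPM; -0.95 ± 0.18 SE). Of 15 smooth muscle and pericyte genes, Acta2, Pdgfrb (-2.45 ± 0.42 SE) and Rgs5 (-2.44 ± 0.60 SE) were lower. Cnn1 (2.40 ± 0.37 SE) and Mcam (0.62 ± 0.16 SE) were higher, the last lost without WT library 2 or Notch1-/- library 3. These counts are near the share of all linked genes, 15.5% in each direction.

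Endothelial genes were lower in 18 of 22 cases, with none higher (median -1.46), and in 15 to 17 cases when 1 library was left out. Cdh5, VE-cadherin (chromosome 8, 106625525 to 106668403, plus strand), fell from 59.95, 49 and 39.7 CPM to 1.09, 0.976 and 1.68 CPM (-5.31 ± 0.38 SE, adjusted p = 2.47e-06). Tie1, a receptor of endothelium, fell from 42.1, 31.5 and 21.9 to 0.279, 0.195 and 1.12 CPM (-5.89 ± 0.68 SE), and the ETS factors Erg from 13.1, 11.6 and 9.96 to 0.18, 0.179 and 0.357 CPM (-5.58 ± 0.46 SE) and Fli1 from 24.7, 25.4 and 19.4 to 0.522, 0.453 and 0.387 CPM (-5.67 ± 0.52 SE). Sox18 (-4.68 ± 0.43 SE), Sox7 (-3.97 ± 0.60 SE) and Icam2 (-4.90 ± 0.68 SE) fell similarly. Of the 18, 13 had their highest Notch1-/- value in library 3. Of the VEGF receptors, Flt4 was lower (-0.73 ± 0.22 SE), a call that among the fits with 1 library left out only the one without WT library 3 kept, while Kdr and Flt1, the first also made by mesoderm that has not yet become endothelium, were not called: Kdr had 318, 256 and 178 CPM in WT and 253, 224 and 69.4 CPM in Notch1-/- libraries, and Flt1 122, 119 and 153 against 174, 71.7 and 87.1 CPM. Vegfa itself fell from 388, 347 and 366 to 97.2, 37 and 77.9 CPM (-2.38 ± 0.29 SE, adjusted p = 0.000112).

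Of 16 blood genes tested, 9 were lower and 2 higher (median -1.92). Tal1, the master regulator of blood formation, fell from 51.3, 39.8 and 31.4 CPM to 1.59, 0.468 and 3.04 CPM (-4.58 ± 0.55 SE, adjusted p = 9.35e-05), Gata2 from 21.1, 16.6 and 15 to 4.08, 5.86 and 2.17 CPM (-2.12 ± 0.31 SE) and Runx1 from 49.99, 53.8 and 54.7 to 15, 19.9 and 6.72 CPM (-1.93 ± 0.36 SE). Hbb-bh1, an embryonic globin, varied widely among WT libraries at 94.8, 49.1 and 11.5 CPM, against 0.009, 0 and 3.27 CPM in Notch1-/- libraries (-5.56 ± 1.57 SE, adjusted p = 0.0233), a call lost without WT library 1 or WT library 2 and in DESeq2. The genes called higher were Myb (13.7, 11.5 and 12.7 against 28.2, 24.6 and 50.9 CPM; 1.46 ± 0.34 SE), which is also expressed in other dividing cells, and Ptprc, at under 0.1 CPM in every library. Without 1 library the count of lower genes was 6 to 10.

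Visceral and extraembryonic endoderm, the nutritive layer around the embryo, contributed 19 lower and 2 higher genes of 28 tested (median -1.76). Apob, the carrier protein of lipoproteins, fell from 102, 148 and 137 CPM to 4.94, 8.05 and 12 CPM (-3.95 ± 0.34 SE, adjusted p = 7.85e-06). Ttr fell from 45.7, 60.9 and 48.1 to 0.414, 0.0702 and 0.32 CPM (-7.59 ± 0.62 SE), Rbp4 from 20.7, 29.4 and 36.2 to 2.57, 1.61 and 2.42 CPM (-3.71 ± 0.34 SE) and the hedgehog ligand Ihh from 7.24, 10.1 and 13.2 to 0.9, 0.624 and 0.693 CPM (-3.78 ± 0.32 SE). Hnf4a (-2.88 ± 0.75 SE) and Foxa1 (-1.67 ± 0.48 SE), regulators of this layer, were lower, calls that were lost without Notch1-/- library 2 or Notch1-/- library 3 and, for Foxa1, also without WT library 2 or WT library 3, whereas Gata6 (-0.84 ± 0.37 SE), Foxa2 (0.62 ± 0.54 SE) and Hhex (-0.34 ± 0.26 SE) were not called. The 2 genes called higher were Lrp2, an endocytic receptor of visceral endoderm and of neural epithelium (33.9, 26.4 and 30.9 against 143, 145 and 408 CPM; 2.93 ± 0.38 SE), and Trf, transferrin (1.26 ± 0.33 SE), a call lost without WT library 1, WT library 2 or Notch1-/- library 3. Of 14 genes of definitive endoderm, 4 were higher, Cer1, Trh, Epcam and Cdh1, and 4 lower, Foxa1, Nepn, Pyy and Shh.

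**Figure D4:**
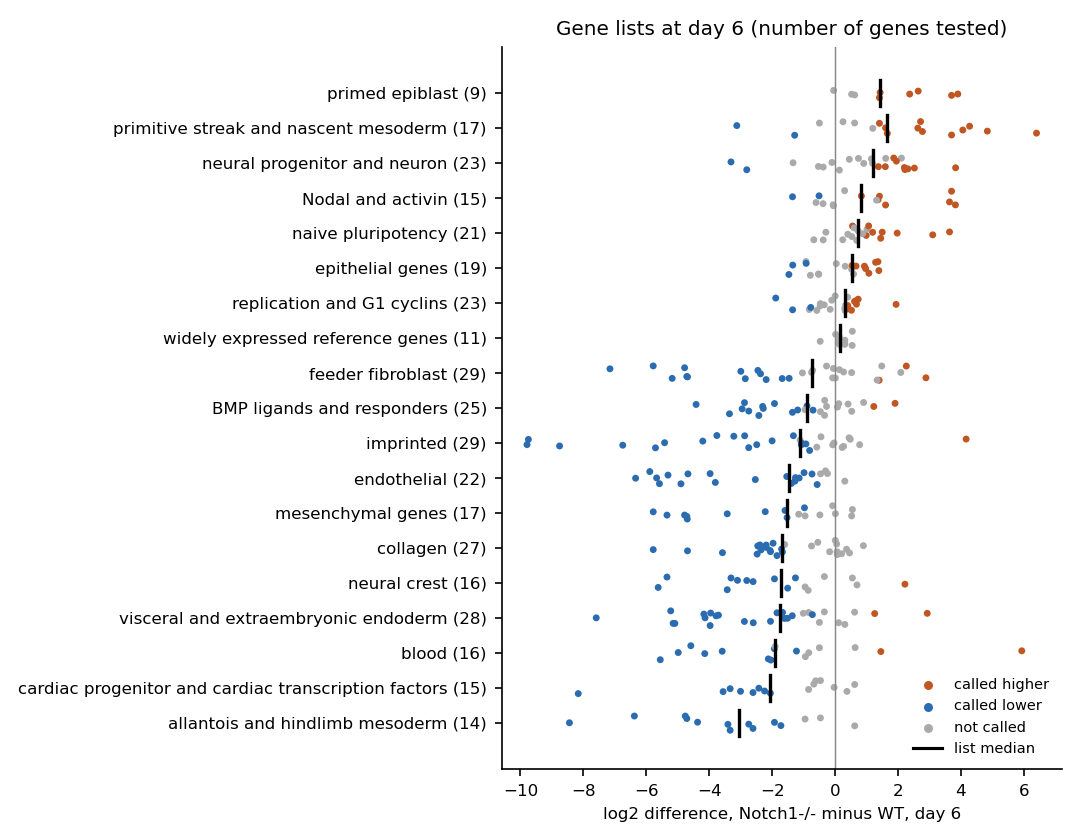
Log2 difference (Notch1-/- minus WT, day 6) of each tested gene in 19 gene lists, with the list median as a black bar; orange genes were called higher, blue lower and grey not called. Medians run from 1.66 for the primitive streak and 1.43 for the primed epiblast to -3.04 for allantois and hindlimb mesoderm, with the reference genes at 0.16.

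Mesenchymal genes were lower in 10 of 17 cases and higher in none (median -1.53), and collagens in 15 of 27 with none higher (median -1.70). Col1a1, the main fibrillar collagen, fell from 886, 834 and 484 CPM to 31, 21.4 and 33 CPM (-4.69 ± 0.53 SE, adjusted p = 6.14e-05), and Col3a1 from 109, 138 and 168 to 2.4, 1.48 and 3.66 CPM (-5.78 ± 0.77 SE). The basement membrane collagen Col4a1 fell from 583, 593 and 584 to 192, 139 and 158 CPM (-1.85 ± 0.20 SE). Tgfb2 fell from 318, 304 and 266 to 9.34, 18.7 and 6.15 CPM (-4.70 ± 0.36 SE), and the repressors of epithelial genes Snai2 from 71.3, 63.4 and 54.1 to 1.98, 1.57 and 1.11 CPM (-5.34 ± 0.74 SE) and Zeb1 from 107, 111 and 86.7 to 24, 22.7 and 18.9 CPM (-2.22 ± 0.25 SE). Snai1, Fn1 (0.01 ± 0.24 SE) and Cdh2 (-0.48 ± 0.26 SE) were not called.

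Feeder fibroblasts express many of these same genes. Of 29 tested feeder markers 13 were lower and 3 higher (median -0.75), with 1 higher without Notch1-/- library 3, WT library 1 or WT library 2, and their summed level was 1330 to 1720 CPM in WT and 180 to 232 CPM in Notch1-/- libraries at day 6, against 1280 to 6770 CPM at day 0. Only 1 of the 29, Fap, had a library at 0. Of the 29, 10 exceeded 10 CPM in every day 0 library and lay below 10 CPM in every day 6 library of both genotypes. Lox, for example, had 0.923 to 1.97 CPM in WT and 1.48 to 2.67 CPM in Notch1-/- libraries, and Inhba 1.33 to 1.96 and 1.28 to 1.89 CPM, where day 0 libraries had at least 69.7 and 150 CPM. Among these 10, Fgf7 was lower and Mmp13 higher in Notch1-/- libraries, and the other 8 were not called. The 10 were picked by this pattern, and other markers above 10 CPM in every day 0 library did not follow it. At day 6 Col1a1 had 484 to 886 CPM in WT and 21.4 to 33 CPM in Notch1-/- libraries. Fbln2 had 53.1 to 68.4 and 19.7 to 36.5 CPM. The part of feeder RNA at day 6 was not tested.

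On the epithelial side 8 of 19 genes were higher and 3 lower (median 0.53); Cdh1, E-cadherin, rose from 224, 254 and 316 CPM to 666, 591 and 827 CPM (1.39 ± 0.16 SE, adjusted p = 6.05e-05) and Epcam from 102, 116 and 131 to 268, 246 and 338 CPM (1.29 ± 0.14 SE). The count of higher genes was 4 without Notch1-/- library 3, WT library 1 or WT library 2, and that of lower genes was 1 without Notch1-/- library 2. Neural crest genes were lower in 10 of 16 cases, with 1 higher (median -1.72). Ednrb, the endothelin receptor of crest cells, fell from 12.7, 12.8 and 10.6 to 0.261, 0.164 and 0.305 CPM (-5.62 ± 0.41 SE), and Twist1 from 135, 168 and 104 to 15.7, 17.1 and 5 CPM (-3.43 ± 0.51 SE). Sox10, a defining crest factor, was the one called higher, at 0.464, 0.288 and 0.265 against 2.22, 1.54 and 0.99 CPM (2.22 ± 0.49 SE).

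Neural progenitor and neuron genes were higher in 9 of 23 cases and lower in 2 (median 1.19), and in 5 cases higher without WT library 2. Stmn2, a microtubule regulator of neurons, rose from 25.3, 27.8 and 24.9 CPM to 137, 171 and 140.0 CPM (2.52 ± 0.16 SE, adjusted p = 1.24e-06), Map2 from 4.74, 5.16 and 4.8 to 16.2, 17.4 and 23.2 CPM (1.95 ± 0.32 SE) and Elavl3 from 0.671, 0.499 and 0.65 to 5.62, 4.41 and 15.9 CPM (3.83 ± 0.55 SE). For Elavl3, Notch1-/- library 3 was the highest by far. Zic2 had 6.09, 6.02 and 10.2 FPKM in WT and 45.8, 41.3 and 56.2 FPKM in Notch1-/- libraries (2.55 ± 0.46 SE). Zic1 (-3.31 ± 0.54 SE) and Pax3 (-2.81 ± 0.57 SE), both also of crest and dorsal neural tube, were lower, and Pax6 (0.14 ± 0.61 SE) and Olig2 (-0.53 ± 0.90 SE), which mark patterned neural tissue, were not called.

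Posterior Hox genes were among the lowest values. Of 12 tested loci linked to a single Hox or Cdx gene, 8 were lower and 3 higher (median -2.38), with 1 higher without Notch1-/- library 2 or WT library 3. Hoxa7 fell from 13.1, 13 and 9.33 CPM to 0.333, 1.14 and 0.238 CPM (-4.37 ± 0.57 SE), whereas Hoxb1, the most anterior gene of its cluster, rose from 0.902, 0.339 and 0.564 to 14.4, 22.9 and 3.86 CPM (4.51 ± 0.66 SE, adjusted p = 0.000379). Most Hox genes lie in loci that merge several of them, and these were chosen after their values were seen. The locus of Hoxc8, Hoxc9, Hoxc10 and Hoxc11 fell from 30.2, 31.3 and 20.9 to 0.135, 0.133 and 0.0596 CPM (-7.98 ± 0.44 SE). That of Hoxd9, Hoxd10 and Hoxd11 fell from 109.5, 98.7 and 69.4 to 1.15, 1.61 and 0.305 CPM (-6.5 ± 0.53 SE), and that of Hoxb8 and Hoxb9 from 106, 85 and 73.6 to 7.23, 10.01 and 4.24 CPM (-3.62 ± 0.31 SE).

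Imprinted genes, expressed from 1 parental copy and many of them active in extraembryonic and mesodermal tissue, were lower in 18 of 29 cases and higher in 1 (median -1.11). H19, the noncoding neighbour of Igf2, fell from 555, 582 and 491 CPM to 1.17, 0.297 and 0.447 CPM (-9.75 ± 0.85 SE, adjusted p = 8.85e-06). Mirg, of the Dlk1 to Dio3 cluster, fell from 139.6, 140.3 and 127 to 0.441, 0.273 and 0.231 CPM (-8.76 ± 0.47 SE), and the locus that merges Meg3 and Rian from the same cluster, of whose exons 62.8% overlap another locus, from 1134, 1210.0 and 1125 to 2.91, 1.75 and 1.32 CPM (-9.19 ± 0.60 SE). Igf2r, the receptor that clears IGF2, fell from 1685, 1754 and 1638 to 303, 329.5 and 271 CPM (-2.49 ± 0.18 SE), and Grb10 from 1973, 1995 and 1680.0 to 487, 392 and 533 CPM (-2.0 ± 0.30 SE). By counts Peg10 fell too (9241, 9331 and 6230.0 to 1029, 1103 and 534 CPM; -3.22 ± 0.39 SE), but its FPKM differed in the other direction, by 3.33 on the log2(FPKM + 1) scale, where limma made no call (adjusted p = 0.27). Mest had 625, 606 and 503 FPKM in WT and 63.6, 67.3 and 59.9 FPKM in Notch1-/- libraries (-3.16 ± 0.19 SE). Peg13 was the member called higher (0.273, 0.305 and 0.205 against 1.99, 2.11 and 10.01 CPM), although not on log2(FPKM + 1). Cdkn1c (-0.58 ± 0.31 SE), Phlda2 (0.45 ± 0.40 SE) and Ube3a (-0.03 ± 0.20 SE) were not called, and the list thus held both lower and uncalled genes.

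Among the other ligand families, Wnt ligands split, with 6 of 16 higher and 3 lower. Beside Wnt8a and Wnt3a, Wnt2b (4.23 ± 0.31 SE) was higher, while Wnt5a, a ligand of posterior outgrowth, fell from 296, 296 and 239 CPM to 77.7, 112 and 19.98 CPM (-1.99 ± 0.53 SE). Of 27 feedback genes, antagonists and targets of Wnt, 7 were higher and 8 lower, but between 3 and 4 higher without Notch1-/- library 1 or 2 or any 1 WT library and 4 lower without Notch1-/- library 3. The common readouts Axin2 (0.06 ± 0.31 SE) and Lef1 (-0.05 ± 0.48 SE) were not called. Sp5, a direct target, had 8.43, 8.36 and 7.64 FPKM in WT and 38.9, 42 and 22 FPKM in Notch1-/- libraries (1.90 ± 0.19 SE). Of the FGF receptors, Fgfr2 fell from 129, 118 and 72.7 to 18.5, 14.5 and 15.6 CPM (-2.72 ± 0.33 SE) and Fgfr3 from 45, 39.1 and 25.6 to 5.53, 3.18 and 3.45 CPM (-3.17 ± 0.59 SE), while Fgfr1 (0.06 ± 0.18 SE) was not called. Of 46 guidance genes 10 were higher and 12 lower; Robo2 fell from 55.6, 63 and 76.9 to 1.26, 2.34 and 1.57 CPM (-5.24 ± 0.37 SE), Unc5c from 410.1, 373 and 306 to 27.8, 19.5 and 6.26 CPM (-4.35 ± 0.54 SE), and Ntn1, the netrin ligand, rose from 15.3, 21.4 and 24.6 to 136, 189.7 and 147 CPM (2.95 ± 0.38 SE).

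Genes of DNA replication and the G1 cyclins were higher in 8 of 23 cases and lower in 3 (median 0.31). Mcm2 rose from 343, 369.8 and 375 CPM to 530.5, 587 and 608 CPM (0.67 ± 0.12 SE), Mcm5 from 337, 388 and 372 to 564, 585 and 610.2 CPM (0.68 ± 0.15 SE) and the cyclin Ccne1 from 40.7, 55.5 and 52.6 to 148, 186 and 237 CPM (1.94 ± 0.29 SE). The inhibitor Cdkn2a fell from 10.5, 14.4 and 16.1 to 3.68, 4.67 and 2.75 CPM (-1.89 ± 0.26 SE). Tet1, which oxidizes methylated cytosine, rose from 187, 176 and 189 to 417, 589 and 830.3 CPM (1.74 ± 0.23 SE). Of 24 genes of glycolysis and hypoxia, 3 were higher and 1, Vegfa, lower; 1 was higher without Notch1-/- library 1 or 3 or any 1 WT library, 2 were lower without Notch1-/- library 1 or WT library 3, and 4 were lower in DESeq2 and 6 with the day 6 libraries alone. Pmaip1, the apoptosis gene Noxa, rose from 50.8, 53.3 and 58.8 to 549, 578 and 480.2 CPM (3.30 ± 0.21 SE, adjusted p = 1.24e-06), as 1 of 2 genes called higher among 19 p53 targets and apoptosis genes, with 2 lower. Without Notch1-/- library 2, WT library 1 or WT library 2, 1 gene of that list was called higher. Among all linked genes 15.5% were called in each direction, and the glycolysis and p53 lists lay below that share in the main fit.

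Noncoding genes were called about as often as coding ones: 179 higher (12.8%) and 242 lower (17.4%) of 1393 long noncoding genes, against 1946 (15.8%) and 1886 (15.3%) of 12302 protein-coding genes. Miat rose from 0.994, 1.07 and 2.45 CPM to 15.1, 16.6 and 62 CPM (4.37 ± 0.62 SE, adjusted p = 0.000299), and Mir124a-1hg, the host of a neuronal microRNA, from 1.03, 1.07 and 1.02 to 10.9, 18.3 and 17.5 CPM (3.90 ± 0.49 SE). Another 3 named by the same rule were higher, 2810429I04Rik (3.10 ± 0.25 SE), Vax2os (3.04 ± 0.43 SE) and Gm13713 (1.72 ± 0.58 SE), the last a call that DESeq2 did not make and that only the fit without Notch1-/- library 3 kept among those with 1 library left out. C330024D21Rik fell from 61.1, 55.5 and 45.2 to 0.162, 0.133 and 0.67 CPM (-7.37 ± 0.90 SE), C430049B03Rik on the X chromosome from 99.8, 96.7 and 66.5 to 4.73, 3.67 and 2.19 CPM (-4.63 ± 0.37 SE) and AI838599 less (-3.67 ± 0.49 SE). Of 6916 loci that hold intergenic transcripts only, 726 were higher (10.5%) and 912 lower (13.2%). Locus XLOC_039633 (chromosome X, 36322962 to 36323413, plus strand) rose from 1.34, 1.57 and 1.31 to 18.8, 19.2 and 21.1 CPM (3.81 ± 0.21 SE), and XLOC_014305 (chromosome 16, 3730117 to 3731136, plus strand) from 60.5, 56.8 and 79.1 to 408, 371 and 257 CPM (2.40 ± 0.20 SE). Locus XLOC_039677 (chromosome X, 61749596 to 61751978, plus strand) fell from 227, 234 and 222 to 0.504, 0.297 and 0.261 CPM (-9.34 ± 0.63 SE), and XLOC_012309 (chromosome 15, 100880309 to 100912332, plus strand) from 30.7, 28.4 and 23.8 to 7.92, 5.56 and 4.91 CPM (-2.17 ± 0.36 SE).

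Day 0 libraries of the same genotypes were compared to see which of these differences were called before differentiation. In undifferentiated cells 2294 loci were called (9.56%), 889 higher (3.71%) and 1405 lower (5.86%). This count depended on single day 0 libraries: it was 5983 without WT library 2, 4172 without Notch1-/- library 1, and 1124, 1282, 1522 and 1545 without Notch1-/- library 2, WT library 1, Notch1-/- library 3 and WT library 3 of day 0. With the day 0 libraries fitted alone it was 706. Within groups, Pearson r of log2 CPM between libraries was 0.9495 to 0.9857 at day 0 and 0.9825 to 0.9967 at day 6. The main fit nevertheless used the same spread per locus for both days. Of the 6741 loci called at day 6, 1036 were called in the same direction at day 0, which is 15.4% of the day 6 calls and 45.2% of the day 0 calls. That number was 2076 without WT library 2 and 651 without Notch1-/- library 2 of day 0, and 407 with each day fitted alone. A test of the difference between the days called 2708 loci (11.3%), in the positive direction 1527 (6.36%) and in the negative 1181 (4.92%), and 2191 of the day 6 calls (32.5%) also differed from day 0 in the same direction. This test called 1434, 1619 and 1787 loci without day 6 WT library 2, WT library 1 and Notch1-/- library 3, and 4099 in DESeq2. For 4537 (67.3%) that test gave no call, which does not show that the difference was alike on both days. The day 0 and day 6 comparisons share no library. However, same-numbered libraries of the 2 days deviated together for numbers 1 and 2 (r = 0.16 to 0.29), and for number 3 r was -0.07 to 0.09.

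Several of the greatest differences were present on both days. Klhdc4 is a kelch-repeat gene (chromosome 8, 124313200 to 124371274, minus strand). Its levels were 6.55, 7.05 and 7.08 CPM in WT and 2145, 2160.0 and 2167 CPM in Notch1-/- libraries at day 6 (8.29 ± 0.31 SE, adjusted p = 1.77e-08), and 22.7, 27.1 and 50.7 against 1151, 958 and 1127 CPM at day 0. Hprt encodes a purine salvage enzyme (chromosome X, 50341255 to 50374958, plus strand) and measured 1.3, 1.48 and 1.39 against 219.5, 233 and 244 CPM at day 6 (7.38 ± 0.25 SE) and 11.7, 11.4 and 20.7 against 281, 277 and 295 CPM at day 0. Tex13b (7.72 ± 1.02 SE at day 6, 6.31 ± 0.96 SE at day 0) and Ankrd31, a gene of meiosis (6.59 ± 0.32 SE and 4.18 ± 0.29 SE), did the same. The Y-linked gene Eif2s3y had 134, 122 and 134 CPM in WT and 0.054, 0.0858 and 0.067 CPM in Notch1-/- libraries at day 6 (-10.85 ± 0.62 SE), and 107, 134 and 106 against 2.69, 7.56 and 13.6 CPM at day 0. Uty (-11.07) and Ddx3y (-9.20) were lower at day 6 too. The list of 6 sex chromosome genes held the Y-linked Eif2s3y, Ddx3y, Kdm5d and Uty and the X-linked Xist and Tsix. Their summed level at day 0 was 9.14 to 39.7 CPM in Notch1-/- and 207 to 283 CPM in WT cells. Feeder markers summed to 1280 to 6770 CPM in those Notch1-/- libraries, and the part of feeder RNA in the sex chromosome sum was not tested. The genotypes thus differed at Klhdc4, Hprt, Tex13b, Ankrd31 and Eif2s3y on both days. The deletion of Notch1 and other differences between the cells used for each genotype cannot be told apart.

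At day 0, 1 of the 22 endothelial genes was called higher and 1 lower, and none of the 14 genes of allantois and hindlimb mesoderm was called, against 3.44% higher and 5.44% lower among linked genes. Pitx1 had a day 0 difference of -0.03, and the difference between the days was -8.42 (SE 0.54, adjusted p = 2.53e-05). For Cdh5 the day 0 difference was 0.99 and the difference between the days -6.30 (SE 0.51), and for Apob 0.48 and -4.43 (SE 0.45). The membrane protein Igsf11 (-3.67 ± 0.36 SE) and the scaffold Magi3 (-2.14 ± 0.21 SE) also had a lower difference at day 6 than at day 0. By list, 12 of 22 endothelial, 10 of 14 allantois and hindlimb and 14 of 28 visceral endoderm genes were called in this test, all in the negative direction except 1 further gene of visceral endoderm, against 6.44% of linked genes. In the positive direction it called 7 of 17 streak genes, against 7.95% of linked genes. This test contains the day 6 difference, so lists already low or high at day 6 can exceed these shares by construction. Of linked genes called lower at day 6 it called 36.8% in the negative direction. Of those called higher at day 6 it called 40.5% in the positive direction. The ephrin receptor Epha1 went from -0.46 at day 0 to 2.34 at day 6 (2.80 ± 0.23 SE, adjusted p = 6.58e-05).

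A smaller set reversed: 132 loci were higher at day 6 and lower at day 0, and 33 the other way. Wnt8a was lower in Notch1-/- cells at day 0 (11.9, 10.2 and 9.49 CPM in WT, 1.51, 1.53 and 3.67 CPM in Notch1-/-; -2.24 ± 0.38 SE) and higher at day 6, a difference between the days of 6.51 (SE 0.56, adjusted p = 7.33e-05). Dll1 went from -2.23 (SE 0.58) at day 0 to 2.97 (SE 0.60) at day 6, and Hoxb1 from -3.05 (SE 0.78) to 4.51 (SE 0.66). Tmem28 (-1.09 to 1.80) and Actn3, a muscle actinin (-1.20 to 2.58), followed the same course, as did the neuronal factor Neurod1 (-1.66 to 1.6). Tbx20 was higher in Notch1-/- cells at day 0 (1.32, 2.12 and 1.44 CPM in WT, 7.24, 11.1 and 15.2 CPM in Notch1-/-; 2.78 ± 0.48 SE) and lower at day 6, and Id2 went from 1.58 to -3.36. Tnfrsf1b, a TNF receptor, was not called at day 0 (-0.50) and was higher at day 6 (2.47; difference between the days 2.97 ± 0.27 SE).

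**Figure D5:**
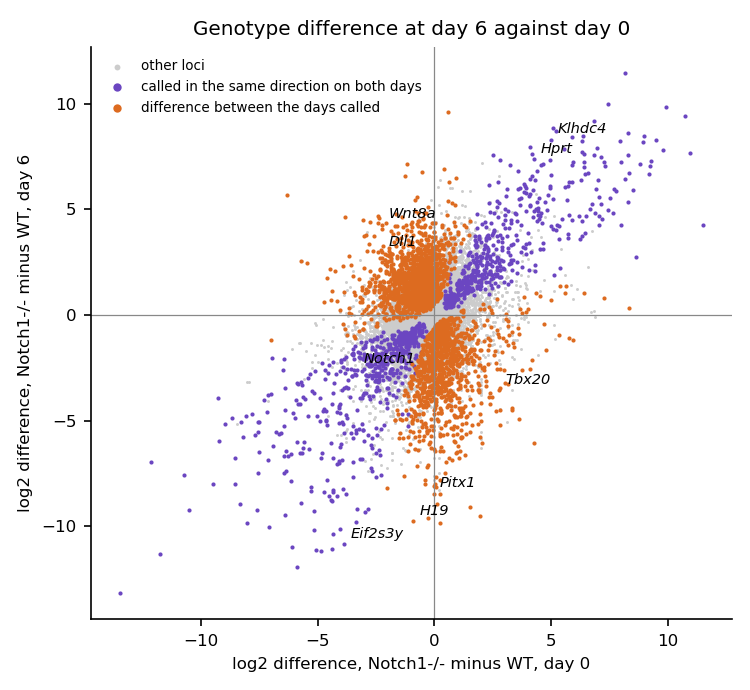
Each point is 1 of 23991 loci, with the log2 difference (Notch1-/- minus WT) at day 0 on the horizontal and at day 6 on the vertical axis. The 1036 loci called in the same direction on both days (purple) lie in the upper right and lower left, among them Klhdc4 (5.01 and 8.29) and Eif2s3y (-3.86 and -10.85). Purple includes those of them whose difference also changed between the days, such as Eif2s3y. The other loci whose difference changed (orange), such as Pitx1 and H19, lie mostly closer to the vertical axis.

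By chromosome, the median difference, over genes whose log2 CPM averaged 2 or more, lay between -0.032 (chromosome 1) and 0.082 (chromosome 2) over the autosomes and the X chromosome. On the Y chromosome 5 of 6 tested genes were lower.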

How the data were processed

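Poly(A) RNA of 12 libraries was measured. The submitters' processing notes name HTSeq 0.5.4p3, Cufflinks 2.1.1, TopHat2 2.0.8 and DESeq, and build mm9, without saying how each was run or whether strand was used in counting. The deposited counts are whole numbers per assembled locus, and the deposited FPKM are the authors' length-scaled values. Gene symbols were assigned by matching exon and intron lengths to a mouse annotation, and 19066 of 40039 loci were linked to 1 gene. In 4677 loci 50% or more of the exon length overlaps another locus, where counts can be lost, and FPKM are given for most of those described. Counts are given for Psenen, Itga4, Igf2r, Pax6, Wnt2b, Nr0b1 and the merged loci of Meg3 and Rian, of Dll3 and of Notch4.

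The 12 libraries were fitted together in edgeR 4.0.16 (R 4.3.3) with 4 group means, TMM scaling, filterByExpr and the quasi-likelihood test, with Benjamini-Hochberg adjustment at 0.05. The method was tested on simulated data with the same spread per locus in every group. A spread that differs between the days was not simulated. DESeq2 1.42.0, limma 3.58.1 and the other settings of the closing section were alternatives. The FPKM test over 12559 loci with a mean FPKM of at least 1 was added after seeing the data. Members and gene lists were chosen with earlier results of these data known. Genes were named as the 15 with the greatest change in each direction (mean log2 CPM of at least 2, no overlap between groups), up to 5 of each list by smallest p, all Notch members, up to 5 noncoding genes and 4 intergenic loci in each direction, and the 6 in each direction with the smallest p for the difference between days. Other list members, the merged loci and the FPKM genes were named after their values were seen, and not every gene the rule selects is printed. Same-numbered libraries of the 2 genotypes deviated together at day 0 (r = 0.45, 0.36 and 0.28, taken as paired from the data, not the labels). The main fit held no replicate block, and counts with the block are in the closing section. A few genes of these lists are not reported here and are left out of the list counts.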

Additional observations from a re-analysis of the deposited data

Results flagged for a closer look

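The differences between genotypes were set against those at day 0 by an interaction term in edgeR (Benjamini-Hochberg adjusted), and 2708 loci differed between the days. Values here are the day 6 difference minus the day 0 difference on the log2 scale. It was positive for Hprt (3.10), Wnt8a (6.51), Epha1 (2.80), Tmem28 (2.89), Actn3 (3.78) and Tnfrsf1b (2.97). It was also positive for Dll1 (5.20), Neurod1 (3.26) and Hoxb1 (7.56). These were listed because they were lower in Notch1-/- cells at day 0 and higher at day 6, which fixes the sign. It was negative for Eif2s3y (-6.99), Pitx1 (-8.42), Cdh5 (-6.30), Igsf11 (-3.67), Magi3 (-2.14) and Apob (-4.43). Tbx20 (-6.34) and Id2 (-4.94) were listed because they were higher in Notch1-/- cells at day 0 and lower at day 6, which fixes the sign. For Hprt and Eif2s3y the group with the lower level had more at day 0 than at day 6. Feeder markers summed to 1280 to 6770 CPM in the day 0 libraries, and the part of feeder RNA in these 2 differences was not tested.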

How the results depend on the processing

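Notch1 was called lower under every alternative run (log2 -3.35 to -1.94). Fitted on the day 6 libraries alone, 11055 loci were called, 5585 higher and 5470 lower. Leaving out 1 library gave 4285 to 5411 calls at day 6 (1912 to 2676 higher, 2373 to 2735 lower), 1434 to 3943 for the difference between days, 1124 to 5983 at day 0 and 651 to 2076 in the same direction on both days. The lowest day 6 counts came without WT library 1 (4285) and WT library 2 (4435), and these libraries and Notch1-/- library 3 also gave the lowest counts for the difference between days (1619, 1434 and 1787). DESeq2 called 4099 loci for the difference between days and 3714 at day 0. Libraries of 1 day alone gave 706 calls at day 0 and 407 in the same direction on both days, and limma on log2(FPKM + 1) gave 498 of the latter. The share of higher calls lay between 42.9% and 52.8%, and the median of all loci moved by less than 0.1. The called genes Igf2 and Peg10 changed sign on FPKM. Peg10 was 5.53 on log2(FPKM + 0.1) and 3.33 on log2(FPKM + 1), not called by limma (adjusted p = 0.151 and 0.27). Igf2 was 8.20 on log2(FPKM + 0.1) and 4.92 on log2(FPKM + 1), called by limma (adjusted p = 4.76e-07 and 1.2e-05). For this gene the FPKM of the WT libraries do not reflect their high counts. Of 165 called genes, Bmpr1b, Chrd, Hes5 and Mcam kept their sign but lost the call on both FPKM scales, Flt4 did so on log2(FPKM + 0.1), and Cdx1, Peg13, Trf and Vcam1 on log2(FPKM + 1). Named genes not called in the main fit could gain a call. With the day 6 libraries alone 18 of 46 did, while 1 of 164 called genes, Gata3, lost its call. The replicate block and log2(FPKM + 1) each gave a call to 7 of 47, DESeq2 to 5 and log2(FPKM + 0.1) to 3. The other genes whose value changed sign were called on neither side. Axin2 gave -0.11 on log2(FPKM + 0.1), -0.098 on log2(FPKM + 1), -0.036 with the replicate block, -0.26 to 0.37 with 1 library left out. Dner gave -0.10 on log2(FPKM + 0.1), -0.035 on log2(FPKM + 1), -0.16 to 0.39 with 1 library left out. Efnb2 gave -0.018 to 0.33 with 1 library left out. Fgfr1 gave -0.035 on log2(FPKM + 0.1), -0.034 on log2(FPKM + 1), -0.069 to 0.16 with 1 library left out. Fn1 gave -0.033 in DESeq2, -0.033 with RLE scaling, -0.11 on log2(FPKM + 0.1), -0.11 on log2(FPKM + 1), -0.21 to 0.27 with 1 library left out. Hey1 gave -0.44 to 0.001 with 1 library left out. Lef1 gave 0.0094 with upper quartile scaling, -0.18 to 0.026 with 1 library left out. Olig2 gave -0.87 to 0.082 with 1 library left out. Pax6 gave -0.031 with the replicate block, -0.085 to 0.42 with 1 library left out. Psenen gave 0.0045 on log2(FPKM + 0.1), 0.0039 on log2(FPKM + 1), 0.021 with upper quartile scaling, -0.25 to 0.16 with 1 library left out. Ube3a gave 0.023 with upper quartile scaling, -0.075 to 0.0007 with 1 library left out. The cause was not tested. With the replicate number as a block, 7666 loci were called at day 6, 3335 at day 0, 3230 for the difference between days and 1466 in the same direction on both days. Same-numbered day 6 libraries deviated together with r = 0.26, 0.11 and 0.04 and were not taken as paired, and WT library 3 correlated best with Notch1-/- library 2 (0.11). At day 0 all 3 pairs exceeded 0.1. At the depth of the deepest day 6 library 1 count is 0.00743 CPM, and levels near this limit were not resolved.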
